A study of Mus musculus with 2 samples.

Results

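The genes described here encode 10 auxiliary subunits of AMPA receptors: Cacng2, Cacng3, Cacng4, Cacng5, Cacng7 and Cacng8 of the TARP family, the cornichon homologues Cnih2 and Cnih3, and Shisa6 and Shisa9 of the Shisa (CKAMP) family. They were chosen by name from gene family knowledge and matched to the gene tables by Ensembl identifier, which found 10 of 10 among the 43346 Ensembl genes measured. RNA came from 2 areas of the granule layer of the cerebellum of adult wild-type male mice of strain B6NCrl (C57Bl6) at 8 months, cut out by laser capture. Each area measured 18000 square microns, counted as about 50 cells, and gave 1 Smart-seq library, a full-length cDNA method that amplifies polyadenylated RNA from few cells. The labels name no treatment and give both areas 1 donor label, so n = 2 below means 2 areas, called replicate 1 and replicate 2, and whether they came from separate animals is not stated.

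AMPA receptors are tetramers of the pore subunits encoded by Gria1 to Gria4 and carry most fast excitatory transmission in the brain. TARPs and other auxiliary subunits bind these tetramers in the membrane, bring them to the cell surface and the synapse, and change how fast the channel opens, closes and desensitizes. In cerebellar granule cells the founding TARP, stargazin, encoded by Cacng2, is known to be needed for AMPA receptor currents at the mossy fibre synapse, because granule cells of the stargazer mouse, which carries a Cacng2 mutation, lack them.

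The ends of the coding sequences show how the family divides, and are shown because the level of each TARP below is read within these classes. Type I TARPs end in a PDZ-binding stretch that docks on scaffold proteins such as PSD-95. The last 30 coding bases before the stop codon are given 5′ to 3′ from the GENCODE M21 transcripts on GRCm38, with the final 12 bases in capitals.
Cacng2, minus strand, chr15:77995152-77995181: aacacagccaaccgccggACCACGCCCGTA
Cacng3, plus strand, chr7:122768814-122768843: aatccggccaacagacgtACCACGCCTGTC
Cacng4, minus strand, chr11:107734783-107734812: agcatgctgaaccggcggACGACTCCCGTG
Cacng8, plus strand, chr7:3415573-3415602: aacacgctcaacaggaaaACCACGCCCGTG
Cacng5, minus strand, chr11:107877355-107877384: gactatgaccagatgtcaTCATCTCCCTGC
Cacng7, plus strand, chr7:3366916-3366945: gaccatctccacatctccACTTCGCCGTGC
Shisa6, minus strand, chr11:66217475-66217504: tacacagccagcaagactGAAGTGACCGTG
Shisa9, plus strand, chr16:12267771-12267800: atcactaacagcaaaacaGAAGTGACTGTC

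In the marked 12 bases, Cacng2 matched Cacng8 at 11 positions, Cacng3 at 10 and Cacng4 at 9, against 5 for Cacng5 and 6 for Cacng7, the type II TARPs. Over all pairs of type I genes the matches ran from 8 to 11, and between a type I and a type II gene from 5 to 7. Cacng5 and Cacng7 matched each other at 8 of the 12. Shisa6 and Shisa9, whose proteins also end in a PDZ-binding stretch, matched at 10 of the 12. Over the aligned coding bases the classes were less separate. Identity ran from 64.1% (Cacng3 and Cacng4) to 72.7% (Cacng2 and Cacng3) between type I genes and from 63.0% (Cacng4 and Cacng7) to 65.7% (Cacng7 and Cacng8) across the classes, ranges that overlap, and was 72.3% for Cacng5 and Cacng7. The annotated Cacng8 and Shisa6 transcripts used for this lack a start codon, so their identities cover the annotated part only. The longest exact run shared by transcripts of any pair of members was 40 bases, between Cacng2 and Shisa6, and between TARPs it was 26 bases, for Cacng5 and Cacng7. Both are shorter than the 99 bases by which each deposited effective length fell below the transcript length. Among the gene counts of the members, Cacng2 alone had a count that was not whole, in replicate 1, and its antisense neighbour A730060N03Rik held 29.2 counts in replicate 1 and 30 in replicate 2.

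The areas carried the RNA of granule neurons together with that of other cells. Replicates 1 and 2 held 19962271 and 19261911 estimated counts on Ensembl genes. All 11 granule neuron markers were detected, with a summed level of 2940 and 3199 TPM (a relative transcript level that is corrected for length, so that genes can be compared), led by the GABA-A receptor subunit Gabra6 at 1006 ± 114 TPM (SD, n = 2). Markers of Bergmann glia and astrocytes summed to 762 and 741 TPM (9 of 10 detected, with Gdf10 at 0.0600) and oligodendrocyte markers to 678 and 818. Purkinje cell markers summed to 136 and 202 TPM (6 of 8 detected), most of it from Pcp2 at 91.1 and 158 TPM. Golgi cell markers summed to 53.3 and 36.5 TPM, and markers of oligodendrocyte precursors to 5.57 and 7.78, with 1 of 7 detected. Red blood cell markers stood apart between the areas, at 5040 and 390 TPM. A level here belongs to a whole area: fewer cells of a type and less RNA per cell cannot be told apart, and no member was assigned to a cell type.

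None of the 10 members was above 6.61 TPM in either area. The 10 members together held 988 and 1015 estimated counts in replicates 1 and 2 and summed to 15.0 and 16.0 TPM. Their median was 1.19 TPM (0.930 and 1.36 in the single libraries), beside 1.42 TPM over all 21474 protein-coding genes. Detection required 5 or more counts and a TPM of 1 or more. By that rule 5 of 10 members, Cacng2, Cacng3, Cacng4, Cnih2 and Shisa9, were detected in both libraries, beside 50.4% of protein-coding genes, so the members' share was near the background. The same 5 were detected in each library alone. With the minimum of 5 counts and no TPM minimum, 8 of 10 members passed in both libraries, beside 59.8% of protein-coding genes, and Cnih3 and Cacng8 did not. With a TPM of at least 5, 1 of 10 passed, Cacng2, beside 37.0%.

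**Figure D1:**
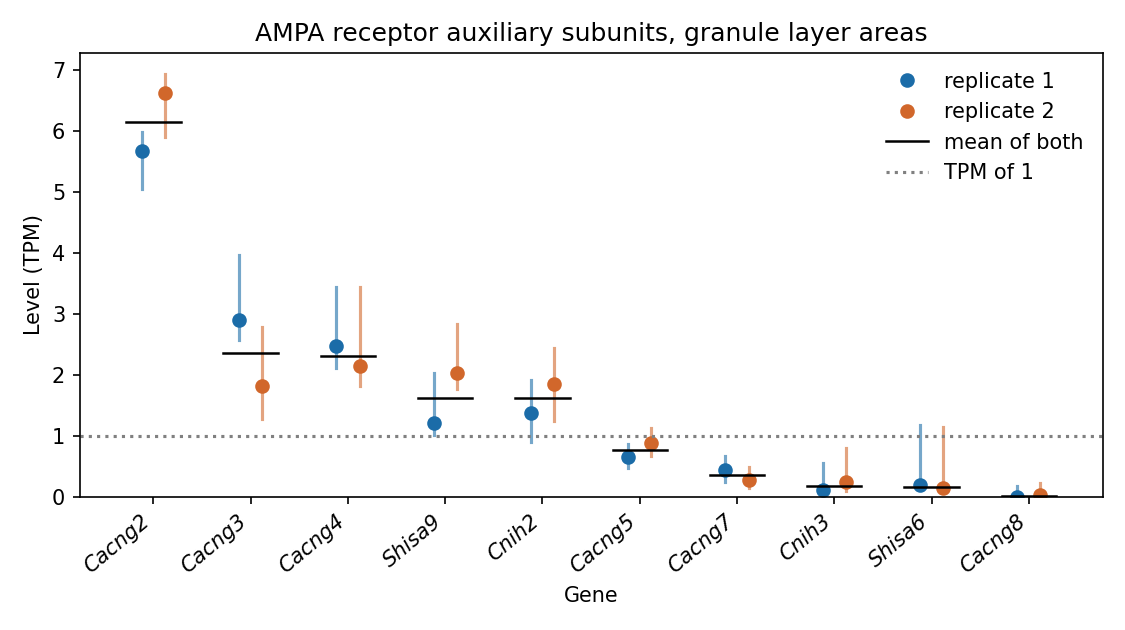
Level in TPM (vertical axis) of each auxiliary subunit gene (horizontal axis, ordered by mean) in replicate 1 (blue) and replicate 2 (orange); vertical lines are the deposited intervals on TPM, black bars the mean of both areas, and the dotted line a TPM of 1. Cacng2, at 5.67 and 6.61 TPM, lies above the other 9 genes in both areas, and 5 genes lie below a TPM of 1 in both.

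Cacng2 (stargazin, ENSMUSG00000019146.2, chromosome 15, 77991748 to 78120028, minus strand) was the highest member. It was at 5.67 TPM in replicate 1 and 6.61 TPM in replicate 2, from 526 and 596 counts. The areas lay close together, and the mean was 6.14 ± 0.665 TPM (SD, n = 2), above 63.8% of protein-coding genes. Cacng2 stood above each of the other 9 members: in both libraries its value and its deposited interval on TPM lay clear of theirs. Those intervals surround a posterior mean of the TPM, deposited as a separate value. For Cacng2 it was below the TPM in both areas, at 5.51 and 6.41. For Cacng3, Cacng4, Cacng7, Cacng8, Cnih3, Shisa6 and Shisa9 it was above the TPM in both. All counts of Cacng2 were assigned to 1 transcript of 4 exons and 5510 bases.

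Cacng3, a type I TARP best known from the cerebral cortex (ENSMUSG00000066189.5, chromosome 7, 122670492 to 122769393, plus strand), was at 2.90 TPM in replicate 1 and 1.82 in replicate 2, from 133 and 48 counts. The areas differed more in count than in TPM, with replicate 1 the higher on both scales. In replicate 1 all counts went to the transcript of 2777 bases, while in replicate 2 that transcript held 33.7 counts and one of 914 bases held 13.7, or 55.5% of the gene by TPM. The length used for the gene was thus 2777 bases in replicate 1 and 1686 in replicate 2, and a shorter length raises the TPM for the same count. The mean of 2.36 ± 0.764 TPM (SD, n = 2) rests on these differing lengths. Of the 6 forebrain neuron markers, 1 was detected in both libraries, Prox1 at 14.0 and 12.8 TPM, and the list median was 0.248 TPM. The cell source of Cacng3 was not tested.

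Cacng4 (ENSMUSG00000020723.3, chromosome 11, 107732357 to 107794557, minus strand), a type I TARP that is also found in glial cells, was at 2.47 and 2.14 TPM from 144 and 121 counts, a mean of 2.31 ± 0.233 TPM (SD, n = 2). The areas were alike in level, and 1 transcript of 3500 bases took all counts in both. Markers of oligodendrocyte precursors, glia that carry AMPA receptors, had a median of 0.520 TPM. The median was 35.9 TPM for oligodendrocyte markers and 50.1 TPM for markers of Bergmann glia and astrocytes. The cell source of Cacng4 was not tested. Reads of its antisense neighbour Gm11650, which overlaps it by 692 bases and had 13.0 and 15.0 counts, cannot be told apart by strand with what is stated on the counting. The last type I TARP, Cacng8 (ENSMUSG00000053395.11, chromosome 7, 3390683 to 3415648, plus strand), abundant in hippocampus as background knowledge, had 0 counts in replicate 1 and 1 count in replicate 2. The floor that a count of 0 leaves here, 3 counts, stands at 0.114 TPM for replicate 1, so Cacng8 was not detectable above it in either area.

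Both type II TARPs were below a TPM of 1. Cacng5 (ENSMUSG00000040373.8, chromosome 11, 107874605 to 107915055, minus strand), which Bergmann glia are known to express, was at 0.650 and 0.890 TPM from 40 and 53 counts. Both areas lay below a TPM of 1, at a mean of 0.770 ± 0.170 TPM (SD, n = 2). The joint list of Bergmann glia and astrocyte markers had medians of 51.9 and 48.3 TPM. Its genes ran in mean level from 0.0600 TPM (Gdf10) to 265 TPM (Aldoc). This list pools both cell types, so it does not give the share of Bergmann glia, and the cell source of Cacng5 was not tested. Cacng7 (ENSMUSG00000069806.4, chromosome 7, 3332955 to 3368221, plus strand), which is known from cerebellar neurons, was at 0.440 and 0.280 TPM from 16 and 10 counts, with a mean of 0.360 ± 0.113 TPM. In both areas its deposited interval on TPM lay below that of Cacng4.

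Within the TARP family, Cacng2 held 46.7% of the summed TPM in replicate 1 and 56.2% in replicate 2, a mean of 51.5 ± 6.66% (SD, n = 2). Cacng3 held 23.9% and 15.5%, and Cacng4 held 20.4% and 18.2%. Cacng5 held 5.36% and 7.56% and Cacng7 3.63% and 2.38%. The 3 detected type I genes thus held most of the TARP mRNA in both areas. Cacng3 was above Cacng4 in replicate 1 and below it in replicate 2.

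**Figure D2:**
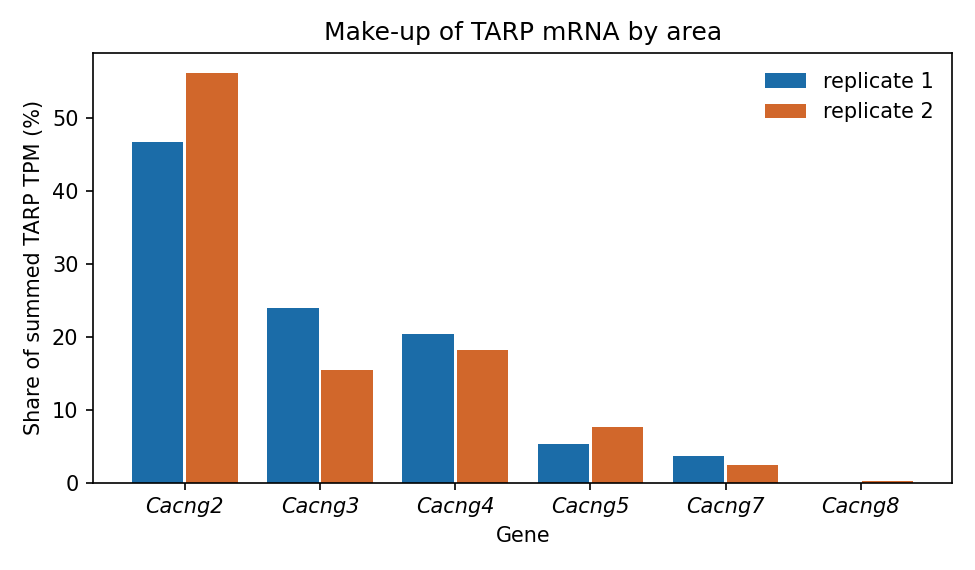
Share of the summed TARP TPM in percent (vertical axis, from 0) held by each of the 6 TARP genes (horizontal axis) in replicate 1 (blue bars) and replicate 2 (orange bars). Cacng2 holds 46.7% and 56.2%, Cacng3 and Cacng4 between 15.5% and 23.9%, and Cacng8 0% and 0.255%.

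Some TARP genes are neighbours in the genome. On chromosome 11, Cacng1, Cacng4 and Cacng5 lie in a row with gaps of 15.8 kb and 80.1 kb. Cacng1, which encodes the calcium channel subunit of skeletal muscle and is no AMPA receptor partner, was at 0.610 and 1.04 TPM, below Cacng4 in both areas. Cacng4 stood apart above Cacng5. On chromosome 7, Cacng7, Cacng8 and Cacng6 lie in a row with gaps of 22.5 kb and 8.55 kb. None of these 3 reached a TPM of 1 in either area, Cacng6 had 0 counts in both libraries, and Cacng7 and Cacng8 were not apart by the rule on values and intervals.

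Both cornichons of this group were below Cacng2. Cnih2 (ENSMUSG00000024873.6, chromosome 19, 5092868 to 5098521, minus strand), which slows AMPA receptor gating in hippocampal neurons, was at 1.38 and 1.85 TPM from 27 and 35 counts, a mean of 1.62 ± 0.332 TPM (SD, n = 2). Its gene meets the more abundant Yif1a (609 and 789 counts) end to end over 14 bases. Cnih3 (ENSMUSG00000026514.9, chromosome 1, 181352628 to 181460641, plus strand) had 1 count in replicate 1 and 5 in replicate 2, at 0.120 and 0.240 TPM. Both values were below the detection rule, and 3 counts would have stood at 0.348 TPM in replicate 1 and 0.147 in replicate 2. The length used for Cnih3 was 602 bases in replicate 1 and 1326 in replicate 2, so its TPM values rest on differing lengths.

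Of the Shisa genes, Shisa9 (CKAMP44, ENSMUSG00000022494.9, chromosome 16, 11984113 to 12270902, plus strand), known for slowing recovery from desensitization in dentate granule cells, was at 1.21 TPM in replicate 1 and 2.03 in replicate 2, from 76 and 135 counts. Replicate 2 was higher, and the mean was 1.62 ± 0.580 TPM (SD, n = 2). Its transcript of 4326 bases held 82.1% and 92.6% of the gene by TPM, and 94.6% and 98.0% by counts. The rest went to a noncoding transcript of 1196 bases, with 4.07 and 2.75 counts. Shisa6 (ENSMUSG00000053930.9, chromosome 11, 66211725 to 66525964, minus strand), known from hippocampal and Purkinje cell synapses, was at 0.200 and 0.140 TPM from 25 and 11 counts. The length used for Shisa6 was 7252 bases in replicate 1 and 4880 in replicate 2. Its deposited interval on TPM ran from 0.170 to 1.17 in replicate 1 and from 0.0956 to 1.14 in replicate 2, so the upper ends lay far above the TPM, and its place among the lowest members is not settled by these files.

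In order of level the members ran Cacng2, Cacng3, Cacng4, Shisa9, Cnih2, Cacng5, Cacng7, Cnih3, Shisa6 and Cacng8. Members were called apart where every library of one lay above every library of the other and the deposited intervals did not overlap in either, and 28 of 45 pairs met this. Among neighbours in the order, Cacng2 stood apart from Cacng3 and Cnih2 from Cacng5. The other 7 neighbouring pairs did not meet the whole rule, which does not make them alike in level. Both values of Cacng5 lay above both of Cacng7, for example, but their intervals overlapped in replicate 1. With 2 areas an exact unpaired permutation test of 1 gene against another cannot go below p = 0.33, so none is given. Such a test would also ignore that both genes were measured in the same libraries.

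The pore subunits of the receptor were measured in the same libraries. Gria2 was at 161 and 140 TPM and Gria4 at 96.1 and 101 TPM, while Gria3 was at 3.23 and 2.81 and Gria1 at 0.120 and 0.0100. The 4 pore genes summed to 261 and 244 TPM. The summed TPM of the 10 members was 5.77% of that in replicate 1 and 6.57% in replicate 2, a mean of 6.17 ± 0.567% (SD, n = 2). This sum leaves out Gsg1l, at 2.79 and 2.24 TPM, and Shisa8, at 7.60 and 13.8 TPM, above Cacng2 in both areas. The ratio is thus not that of all auxiliary subunits. Cacng2 was at 3.51% and 4.73% of the Gria2 level. These are ratios of mRNA per length, and the files hold no protein.

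In the cornichon and Shisa families, some relatives that are not members reached higher levels. In the Cacng family, Cacng1 and Cacng6 together were 0.0503 and 0.0884 times the summed members. Cnih1, a cornichon of export from the endoplasmic reticulum, was at 147 and 184 TPM, and Cnih4 at 98.4 and 93.3. Cnih1 and Cnih4 together were 163 and 133 times the summed level of Cnih2 and Cnih3. Shisa4 was at 43.2 and 39.3 TPM, Shisa5 at 13.8 and 12.1, and Shisa8, a CKAMP relative of Shisa9, at 7.60 and 13.8. Shisa7, Shisa3 and Shisa2 were below Shisa9, at mean levels of 0.22, 0.205 and 0.02 TPM. The 6 Shisa relatives together were 46.1 and 30.2 times the sum of Shisa6 and Shisa9. Gsg1l, a further AMPA receptor auxiliary subunit, was at 2.79 and 2.24 TPM. In all, 6 of 11 relatives were detected in both libraries and 5 were above Cacng2 in mean level, with a list median of 2.52 TPM.

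Partners and assembly factors of AMPA receptors were mostly well above the members. Of 19 such genes, 16 were detected in both libraries, 14 were above Cacng2 in mean level, and the median was 16.7 TPM. The secreted noelin Olfm1 was at 256 TPM in both areas and its relative Olfm3 at 111 and 143, while Olfm2 was at 0.820 and 0.920. Tspan7, a tetraspanin, was at 210 and 224 TPM. Frrs1l, a factor of receptor assembly in the endoplasmic reticulum, was at 102 and 100.3 TPM, and its partner in that step, Cpt1c, at 8.99 and 10.2. The neuronal pentraxin Nptx1 was at 41.0 and 40.2 TPM, and Nptx2 had 0 counts in both.

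Genes of anchoring and trafficking had a median of 32.6 TPM, with 16 of 18 detected in both libraries and 13 above Cacng2. Sdcbp, which encodes syntenin, was at 239 and 238 TPM, the small scaffold Lin7a at 187 and 180, the fusion ATPase gene Nsf at 144 and 159, and the clathrin adaptor gene Ap2m1 at 133 and 150.4. Dlg4, the gene of PSD-95 to which type I TARPs bind, was at 1.71 and 2.24 TPM from 56 and 58 counts. Both TPM values lay below their deposited intervals, which began at 2.42 and 2.29. Its relatives Dlg1 and Dlg2 were at 91.5 and 85.9 and at 42.9 and 43.9 TPM. Of the kainate receptor auxiliary genes, Neto2 was at 52.2 and 51.0 TPM and Neto1 at 0.10 and 0.17.

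**Figure D3:**
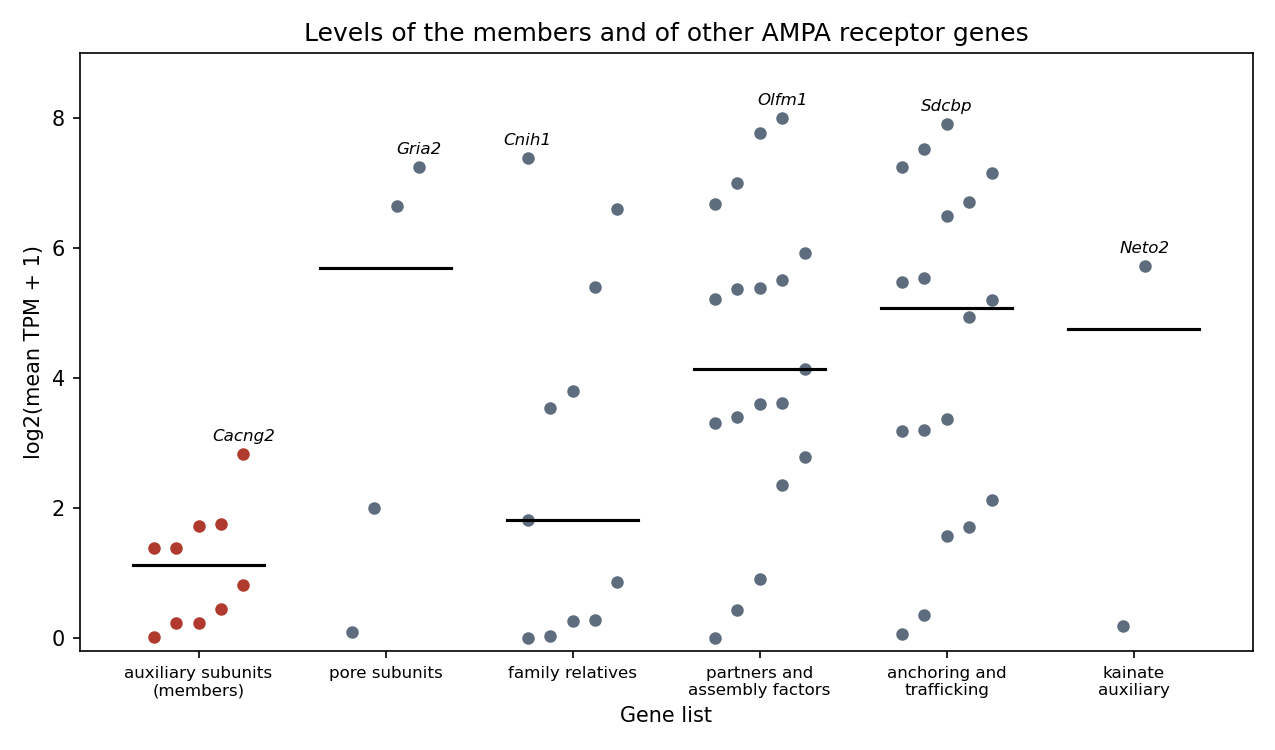
Mean level over both areas as log2(TPM + 1) (vertical axis) for each gene (points) of 6 lists (horizontal axis), with the list median as a black bar and the highest gene named; the 10 members are in red. The highest of the 10 members, Cacng2 at 6.14 TPM, lies below 14 of 19 partners and 13 of 18 anchoring genes.

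Over the 54 genes of these 5 lists, 33 stood apart above Cacng2 by the rule on values and intervals, and 16 below it. For Cacng7 the numbers were 42 above and 2 below. The lists were chosen by function and not to match the members in abundance, and each gene's place is a description of these 2 areas.

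The areas were then compared with each other. Counts were set against the share of the library totals in a two-sided exact binomial test per gene, with Benjamini-Hochberg adjustment over 16659 genes with at least 10 counts in all. The test sets 1 library against the other rather than any conditions, and its error is that of counting alone, although reads copied from 1 molecule by amplification are not independent. Of the 8 members tested, 3 differed beyond counting error at an adjusted p under 0.05, 1 higher in replicate 1 and 2 higher in replicate 2. Over all genes 47.6% did, and 44.0% of the 9010 genes whose summed counts lay in the members' range of 26 to 1122, so the members were near the background. Their median log2 ratio of TPM + 1, replicate 2 over replicate 1, was 0.09 over all 10, against -0.01 over all genes tested.

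Cacng3 was 2.67 times higher per library total in replicate 1, with an exact 95% interval for counting error of 1.91 to 3.8 and an adjusted p of 1.28e-08 in the exact binomial test. Shisa9 was 1.84 times higher in replicate 2 (interval 1.38 to 2.47, adjusted p = 9.13e-05 in the same exact test). Cacng2 was 1.17 times higher in replicate 2 (interval 1.04 to 1.32, adjusted p = 0.0180, exact test). Shisa6 had 25 and 11 counts and an adjusted p of 0.0604 in the exact test, and for Cacng4, Cacng5, Cacng7 and Cnih2 it ran from 0.228 to 0.439. When all counts were first divided by 10, to mimic amplification, 0 of the 8 members and 112 of 17271 genes (0.648%) were called.

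Among genes with like counts, the middle 90% had a count ratio of 0.369 to 2.36, replicate 2 over replicate 1. The ratio of Cacng3 by TPM, which carries the change in assigned length, was 0.628. The count ratios of all 8 members tested, from 0.374 for Cacng3 to 1.84 for Shisa9, lay inside the range for genes with like counts. That range pools genes of 26 to 1122 summed counts. It therefore cannot show whether a member's ratio is usual at its own depth. Cell type markers also differed between the areas. Oligodendrocyte markers were higher in replicate 2 for 9 of 9 genes and granule neuron markers for 8 of 11. Golgi cell markers were higher in replicate 1 for 6 of 7 genes, endothelial markers for 6 of 6 and red blood cell markers for 5 of 5. With 2 libraries any gene shares its direction with some of these lists, so no member was matched to a list. The part of these cell types in the members' differences was not tested.

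**Figure D4:**
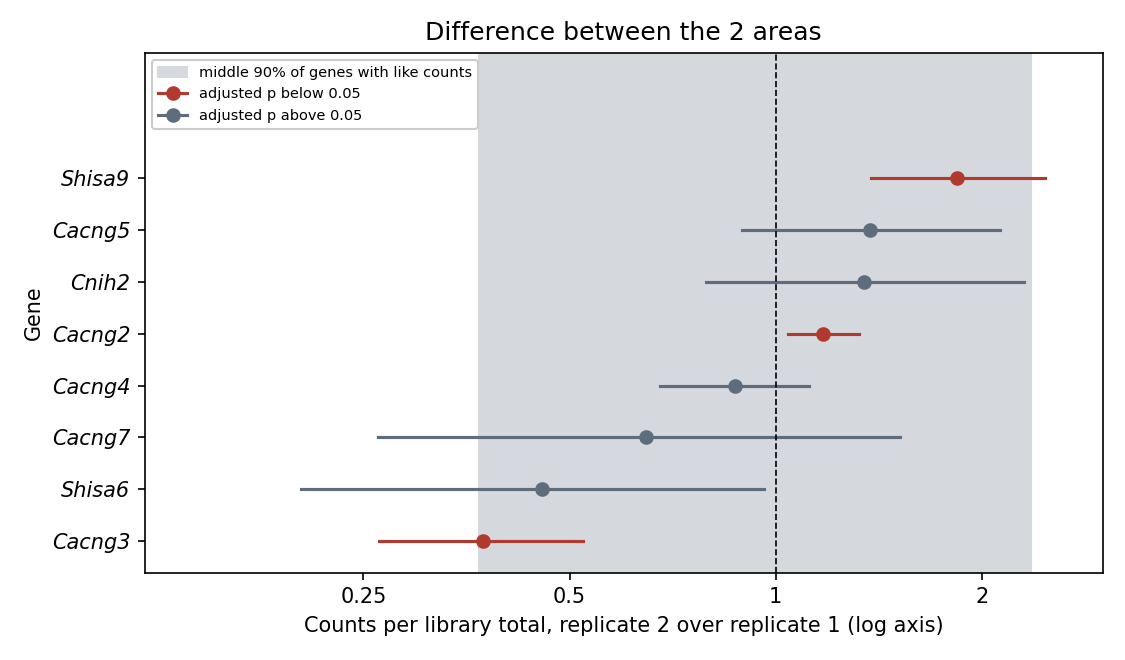
Counts per library total in replicate 2 over replicate 1 (horizontal log axis) for the 8 members tested (vertical axis), with exact 95% intervals for counting error, red where the adjusted p is below 0.05; the grey band holds the middle 90% of genes with like counts. Cacng3 lies at 0.374, Shisa9 at 1.84 and Cacng2 at 1.17, all inside the band of 0.369 to 2.36. The band pools genes of 26 to 1122 summed counts, not genes at each member's own depth.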

How the data were processed

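The deposited notes name mm10 and the GENCODE M4 annotation. The aligner, the counting program, any filter and any strand setting were not given in the sources used here. Per the file headers, the deposited values are expected counts, which are estimates for each gene and transcript, with the authors' TPM and FPKM. Deposited score columns give an interval on TPM, of no stated level, and the posterior SD of the count. A deposited percent column gives the part of a gene's TPM that each transcript holds.

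Identifiers without version were looked up in GENCODE M21 (GRCm38), where 42462 of 43346 Ensembl genes matched. Spike-in and numeric rows were left out of the totals of 19962271 and 19261911 counts. The exact binomial test used rounded expected counts (Python 3.11.15, SciPy 1.17.1) and was tested on simulated data; edgeR 4.0.16 gave TMM factors only. Ratios of TPM used log2(TPM + 1). Intervals and the floor of 3 counts cover counting error only.

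The members and lists were chosen with earlier results of these data known. All 10 members, the 4 pore genes and the 4 highest genes of each longer list were named by rule; other genes, including genome neighbours, were named after their values were seen, and the genes of like counts were chosen after seeing the data. Alternatives changed the unit, detection rule, pseudocount, scaling, filter, read depth and library.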

Additional observations from a re-analysis of the deposited data

How the results depend on the processing

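Each value was recomputed with 1 choice changed, except that dividing counts by 10 also changed the genes tested, from 16659 to 17271. The median level of the members, 1.19 TPM, became 2.01 when TPM was rescaled to nuclear protein-coding genes, which multiplies every gene alike within a library. It lay at 0.930 and 1.36 in the single libraries. The number of members detected in both libraries was 5, and it was 8 without a TPM minimum (59.8% of protein-coding genes), 1 at a TPM of at least 5 (37.0%), and 5 in either library alone. The number of members beyond counting error was 3, also with median-of-ratios factors and without a filter, and 0 with counts divided by 10. Over all genes it was 7931 in the main run and 112 with counts divided by 10. TMM sizes also gave 3 members, but with factors of 1.0001 and 0.9999 that run nearly repeats the main one. The summed members were 6.17% of the pore genes, 5.41% from counts not corrected for length, 6.84% from posterior mean TPM (both chosen after seeing the data), and 5.77% to 6.57% in the single libraries. As posterior means, Shisa6 was at 0.525 TPM in place of 0.170, Cnih3 at 0.325 in place of 0.180 and Cacng8 at 0.0950 in place of 0.0150. The Cacng2 share of TARP mRNA ran from 46.7% to 56.2%, and the order of 42 to 45 of 45 pairs of members was kept. Another pseudocount cannot turn the sign of a log2 ratio between the areas and changed only its size. For Cacng3 the log2 ratio was -0.644 with a pseudocount of 0.1 and -0.212 with 5. The main transcript of Shisa9 held a mean of 87.3% of the gene by TPM and 96.3% by counts. No paired analysis of conditions was possible because both areas belong to 1 group. Depth limits Cacng8 and Cnih3, with at most 5 counts in a library.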
